A study of Danio rerio with 28 samples.

Results

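The zebrafish genes scpp1, scpp9, s100a11 and pvalb8 were measured in whole larvae exposed to cadmium or to PCB126. The 4 genes, of 38318 in the count table, were chosen by their lower counts under cadmium than in control libraries. The difference from control is therefore given for them as a description, without a test. All 4 passed the filter on low counts, as did 25393 genes in all.

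The scpp genes encode secretory calcium-binding phosphoproteins, a family of mineralised tissue such as bone and teeth. The family belongs to the lineage of SPARC, a matrix glycoprotein. S100 proteins and parvalbumins carry EF-hand motifs, helix-loop-helix folds that bind calcium inside the cell. S100A11 in mammals binds annexins at membranes, parvalbumins buffer calcium in muscle and neurons, and pvalb8 is used as a marker of hair cells, the mechanosensory cells of the zebrafish ear and lateral line. The cadmium ion resembles the calcium ion in size and charge and enters fish partly through calcium transport.

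Polyadenylated RNA was sequenced from larvae of the AB wild-type strain, which carry no transgene or mutation named in the labels. They were raised in E3 medium at 28.5 °C and exposed between day 1 and day 5 after fertilization. The 28 libraries form 7 groups of 4: control, cadmium (Cd) at 2.4, 12 and 24 ug/L, and PCB126, a polychlorinated biphenyl that activates the aryl hydrocarbon receptor, at 0.08, 0.4 and 0.8 nM. A single control set serves both chemicals, and its library names carry the Cd prefix. No vehicle for PCB126 and no cadmium salt are named, and the labels do not say if replicate libraries stem from different clutches or dishes, so the p-values measure only the spread between these samples.

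Libraries held 11893345 to 20770004 counts. A divergent pair, control replicate 4 and Cd 2.4 ug/L replicate 3, differed from the rest: their TMM factors (edgeR's correction of library size) were 0.646 and 0.687, against 0.993 to 1.08 in the other 26. Ribosomal protein genes took 10.8% and 11.1% of their counts, against 5.09% to 5.93% elsewhere. Values without this divergent pair are given beside the results that change with it. The whole-larva markers fabp10a of liver, rho of rods, gfap of glia, hbbe1.1 of red cells and cryaa of lens were present in every library, at a lowest value of 20.7 CPM (counts scaled to a common library size with TMM), while mylpfa of fast muscle was listed at 0 to 0.613 CPM under that symbol. The annotation release is not named, so this low value cannot be read as a lack of muscle RNA.

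The scpp genes lie apart on chromosome 1 of the GRCz11 assembly. The scpp1 gene, ENSDARG00000090416, spans bases 37379063 to 37383741 of the minus strand, and scpp9, ENSDARG00000087178, spans bases 43969797 to 43973068 of the minus strand. The s100a11 gene, ENSDARG00000093628, spans bases 7567763 to 7570475 of the plus strand of chromosome 19. The pvalb8 gene, ENSDARG00000037790, spans bases 61154219 to 61162750 of the minus strand of chromosome 3. Per gene length, on the TPM scale (counts divided by gene length and scaled within each library), the control levels were 3.79 ± 1.68 for scpp1, 14.3 ± 2.1 for scpp9, 152 ± 28.6 for s100a11 and 393 ± 66.2 for pvalb8 (SD, n = 4). At Cd 24 ug/L the TPM levels were 1.72 ± 0.390, 4.6 ± 1.33, 45.4 ± 10.5 and 170 ± 9.11 in the same order. The order of the 4 genes by level was the same in both groups.

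The matrix gene scpp1 had the lowest level per gene length of the 4, on the TPM scale, in controls and at Cd 24 ug/L. In control replicates 1 to 4 it stood at 6.78, 5.25, 6.52 and 3.83 CPM, and at Cd 24 ug/L at 2.57, 2.26, 1.72 and 3.06 CPM. On the CPM scale all libraries of the highest cadmium dose lay below all controls. The middle dose, Cd 12 ug/L, gave 4.61, 3.73, 2.28 and 3.32 CPM, which overlapped the control range at its lower end. This overlap came only from the divergent control replicate 4, as the other controls lay at 5.25 CPM or above. At Cd 2.4 ug/L they were 5.52, 8.0, 8.99 and 5.04 CPM, with 2 libraries above every control. The value of 8.99 CPM belongs to the divergent replicate 3, which on the TPM scale was the lowest of its group, at 3.33 TPM. The 4 highest-dose values rest on 38, 32, 27 and 44 counts, and the smallest of these has a 95% counting interval of 17.8 to 39.3 counts. In bulk RNA from whole larvae, fewer cells of a type and less RNA per cell cannot be told apart.

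For scpp1 the mean was 5.59 ± 1.35 CPM in controls, 6.89 ± 1.91 at Cd 2.4 ug/L, 3.49 ± 0.965 at Cd 12 ug/L and 2.40 ± 0.560 at Cd 24 ug/L (SD, n = 4). It was 2.34-fold lower than control at Cd 24 ug/L in the fit (log2 fold change -1.22 ± 0.24, SE). Without the divergent pair it was 2.56-fold lower. In this fit the pair therefore moved scpp1 little, and control replicate 4 was the lowest control for this gene. On the TPM scale that library had 1.38 TPM, against 3.91 to 5.06 TPM in the other controls.

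The second phosphoprotein gene, scpp9, had control values of 4.99, 6.88, 5.68 and 10.9 CPM and values of 1.08, 2.33, 1.98 and 2.23 CPM at Cd 24 ug/L. The highest-dose libraries lay below all controls and also below all libraries of every other group. With Cd 12 ug/L scpp9 had 5.72, 3.13, 3.68 and 5.43 CPM, overlapping the controls. At Cd 2.4 ug/L it had 4.41, 12.6, 19.6 and 8.36 CPM, the widest spread of the 7 groups for this gene. The lowest library held 16 counts, with a 95% counting interval of 9.15 to 26 counts.

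Group means of scpp9 were 7.10 ± 2.62 CPM in controls, 11.2 ± 6.51 at Cd 2.4 ug/L, 4.49 ± 1.28 at Cd 12 ug/L and 1.90 ± 0.568 at Cd 24 ug/L (SD, n = 4). The fitted level at Cd 24 ug/L was 3.70-fold lower than control, a log2 fold change of -1.89 ± 0.39 (SE), and 3.06-fold lower without the pair. The lowest dose stood at a log2 fold change of 0.66 ± 0.36 and the middle dose at -0.66 ± 0.36. Without the pair these values were 0.52 ± 0.33 and -0.39 ± 0.32, so the sign differed between the doses in both fits.

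For the EF-hand gene s100a11, control replicates 1 to 3 had 25.8, 28.9 and 28.9 CPM, and replicate 4 had 80.9 CPM. Its Cd 24 ug/L libraries had 10.203, 6.64, 9.32 and 11.9 CPM. Every highest-dose library lay below every control, with or without the divergent one. Cd 12 ug/L gave 16.9, 11.2, 13.3 and 12.8 CPM, also below all controls. Cd 2.4 ug/L gave 20.6, 22.4, 83.5 and 16.6 CPM, where the divergent replicate 3 was high and the other 3 lay below all controls. On the TPM scale, which uses no TMM factor, control replicate 4 had 193 TPM, against 128 to 143 TPM in the other controls. Cd 2.4 ug/L replicate 3 had 205 TPM, against 76.6 to 105 TPM in the rest of its group.

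Mean s100a11 was 41.1 ± 26.5 CPM in controls, 35.8 ± 31.9 at Cd 2.4 ug/L, 13.6 ± 2.42 at Cd 12 ug/L and 9.51 ± 2.19 at Cd 24 ug/L (SD, n = 4). Without the pair the means were 27.9 CPM in 3 controls and 19.9 CPM in 3 libraries at Cd 2.4 ug/L. Compared with control, Cd 24 ug/L was 4.30-fold lower, at -2.11 ± 0.39 on the log2 scale (SE), and without the pair it was -1.55 ± 0.14, or 2.92-fold lower. At Cd 12 ug/L it was -1.60 ± 0.38, and -1.05 ± 0.13 without the pair. The lowest dose had -0.20 ± 0.37, and -0.49 ± 0.14 without the pair. At this dose leaving out single libraries gave -1.04 to 0.36, so its sign depended on which library was left out. The sign was negative in both fits at each dose.

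The parvalbumin gene pvalb8 had the highest level per gene length of the 4, on the TPM scale, in the same groups. Control replicates 1 to 4 had 129.7, 128, 140.4 and 373 CPM, and Cd 24 ug/L had 62.3, 62.8, 63.5 and 70.4 CPM. The highest-dose libraries were close together and all below the controls. At Cd 12 ug/L the values were 103, 68.1, 69.1 and 78.8 CPM, again below all controls. At Cd 2.4 ug/L they were 144, 127, 353 and 110.2 CPM, overlapping the controls. The divergent libraries were the high ones in both groups. On the TPM scale control replicate 4 had 490.5 TPM, against 350 to 378 TPM in the other controls. Cd 2.4 ug/L replicate 3 had 477 TPM, against 279 to 364 TPM in the rest of its group.

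Means of pvalb8 were 193 ± 120 CPM in controls, 184 ± 114 at Cd 2.4 ug/L, 79.7 ± 16.1 at Cd 12 ug/L and 64.8 ± 3.82 at Cd 24 ug/L (SD, n = 4). Leaving out the pair gave 133 CPM in controls and 127 CPM at Cd 2.4 ug/L. At Cd 24 ug/L pvalb8 was 2.98-fold lower, with log2 fold change -1.57 ± 0.30 (SE), and 2.04-fold lower, with -1.03 ± 0.11, without the pair. The middle dose had -1.27 ± 0.30, and -0.74 ± 0.11 without the pair. The lowest dose had -0.07 ± 0.30, and -0.06 ± 0.11 without the pair, with -0.60 to 0.47 over single omissions.

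**Figure D1:**
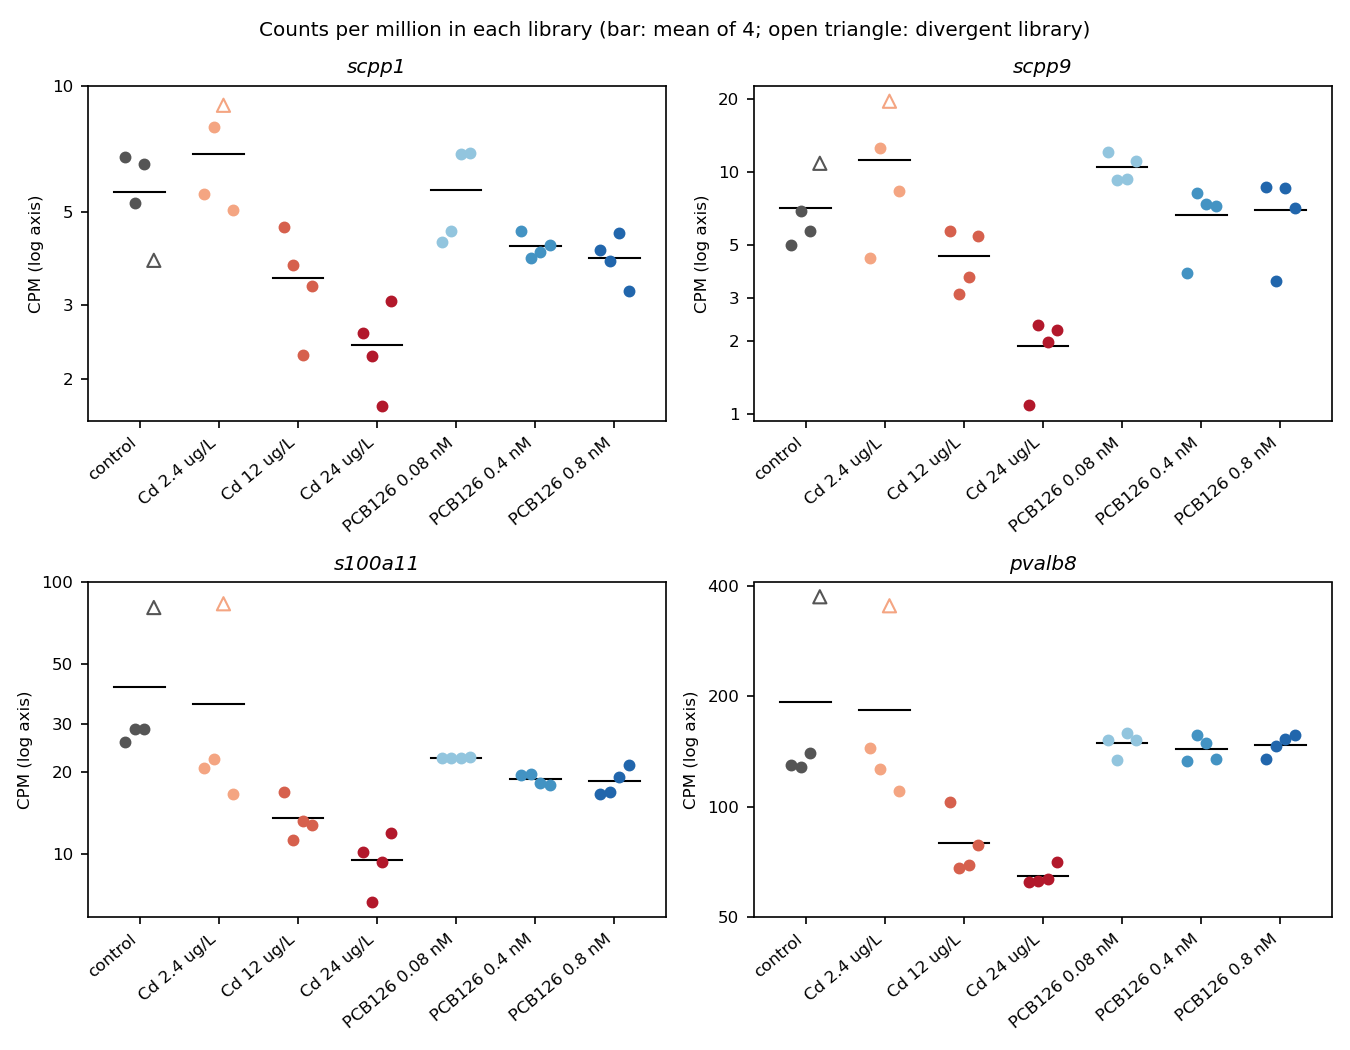
CPM (log axis) of scpp1, scpp9, s100a11 and pvalb8 in each of the 28 libraries, by group; points are libraries, bars are means of 4, and open triangles are control replicate 4 and Cd 2.4 ug/L replicate 3. On this CPM scale the Cd 24 ug/L libraries lie below all controls for each gene. The triangles are the high points of s100a11 and pvalb8, at 80.9 and 83.5 CPM and at 373 and 353 CPM.

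On the CPM scale all 4 genes had non-overlapping lower values at Cd 24 ug/L, where 3.44% of the 25393 genes did. Nothing is read from this because the same comparison chose them. At Cd 12 ug/L s100a11 and pvalb8 had such values, where 1.78% of genes did. At Cd 2.4 ug/L none of the 4 did, where 0.524% of genes did. Ranked from the most negative log2 fold change at Cd 24 ug/L, s100a11 was 21, scpp9 was 29, pvalb8 was 63 and scpp1 was 141 of 25393. In each of the 4 genes the group mean was lowest at Cd 24 ug/L and next lowest at Cd 12 ug/L. These neighbouring groups overlapped in scpp1, s100a11 and pvalb8 and did not overlap in scpp9.

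**Figure D2:**
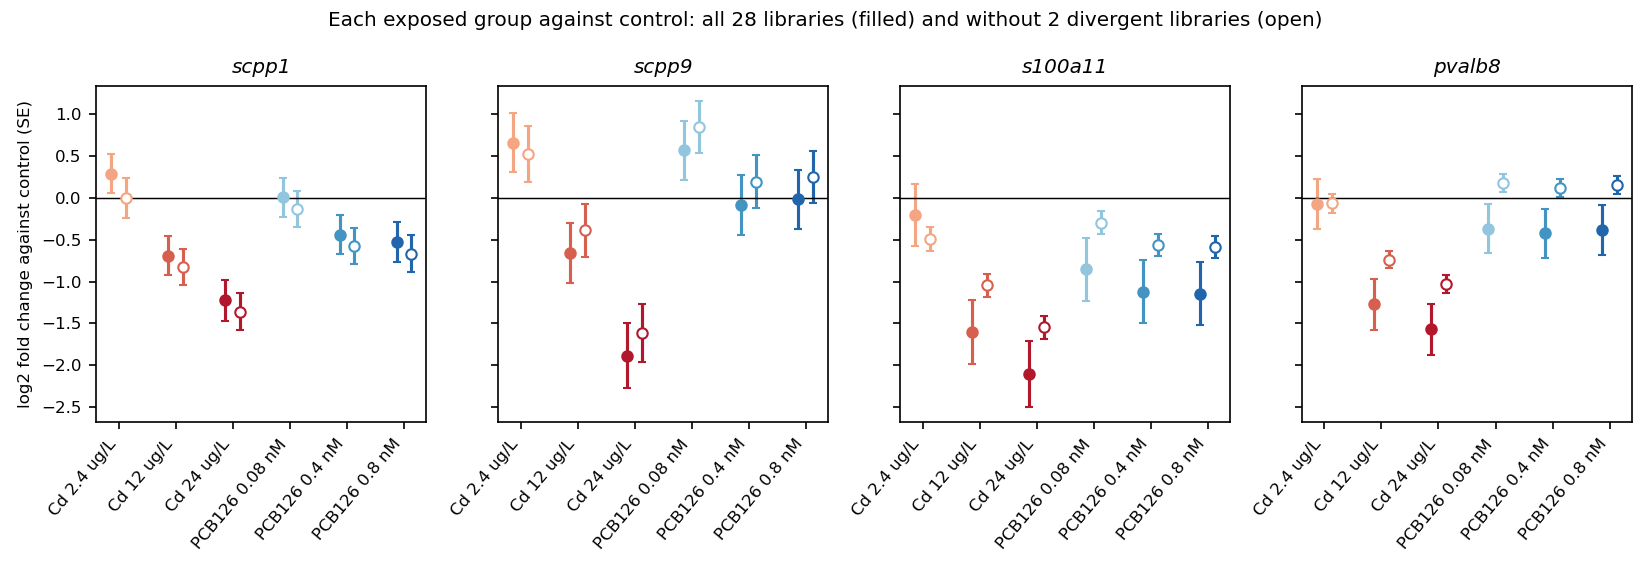
Log2 fold change against control with its SE for each gene and exposed group; filled points use all 28 libraries and open points leave out the 2 divergent ones. At Cd 24 ug/L the filled points run from -2.11 for s100a11 to -1.22 for scpp1, and for pvalb8 the 3 PCB126 groups are below 0 with all libraries and above 0 without the pair.

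In the PCB126 libraries the 4 genes were compared between doses. The log2 fold changes of these contrasts come from PCB126 libraries, but their SE and p rest on the spread over all 28 libraries, the divergent pair included. The scpp1 values were 4.24, 4.498, 6.89 and 6.92 CPM at 0.08 nM, 4.494, 3.88, 4.01 and 4.17 CPM at 0.4 nM, and 4.06, 3.81, 4.44 and 3.24 CPM at 0.8 nM. Replicates 3 and 4 of the lowest dose were well above every library of the higher doses, replicate 2 was barely above them, and replicate 1 lay within their range. For scpp9 the values were 12.2, 9.28, 9.31 and 11.1 CPM at 0.08 nM, 3.82, 8.21, 7.34 and 7.25 CPM at 0.4 nM, and 8.67, 3.54, 8.55 and 7.12 CPM at 0.8 nM. All lowest-dose libraries of scpp9 were above all libraries of both higher doses.

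For s100a11 the PCB126 values were 22.6, 22.6, 22.6 and 22.8 CPM at 0.08 nM, 19.5, 19.7, 18.2 and 17.98 CPM at 0.4 nM, and 16.6, 16.9, 19.2 and 21.3 CPM at 0.8 nM. The lowest dose was again above both higher doses in every library. The pvalb8 values were 152, 134, 159 and 152 CPM at 0.08 nM, 133, 157, 149 and 135 CPM at 0.4 nM, and 135, 146, 153 and 156 CPM at 0.8 nM. The 3 pvalb8 groups overlapped.

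None of the 4 genes passed edgeR's quasi-likelihood test with Benjamini-Hochberg adjustment between any PCB126 doses, and none passed DESeq2 or limma. The test called 0.390% of genes for 0.4 against 0.08 nM, 1.02% for 0.8 against 0.08 nM and 0.209% for 0.8 against 0.4 nM. At 0.8 against 0.08 nM the log2 fold change of scpp1 was -0.53 ± 0.24 (SE; 95% interval -1.03 to -0.04; edgeR adjusted p = 0.427). For scpp9 it was -0.59 ± 0.35 (interval -1.32 to 0.15; edgeR adjusted p = 0.665). For s100a11 it was -0.29 ± 0.38 (interval -1.07 to 0.49; edgeR adjusted p = 0.929). The pvalb8 value was -0.02 ± 0.30 (interval -0.64 to 0.60; edgeR adjusted p = 0.996). At 0.4 against 0.08 nM the log2 fold changes were -0.45 ± 0.24 for scpp1, -0.65 ± 0.35 for scpp9, -0.26 ± 0.37 for s100a11 and -0.06 ± 0.30 for pvalb8, and at 0.8 against 0.4 nM they ran from -0.09 to 0.06. Without the divergent pair, 0.8 against 0.08 nM gave -0.54 ± 0.21 for scpp1 (SE, edgeR adjusted p = 0.0964), -0.59 ± 0.29 for scpp9 (adjusted p = 0.194), -0.29 ± 0.13 for s100a11 (adjusted p = 0.140) and -0.02 ± 0.10 for pvalb8 (adjusted p = 0.923). The log2 fold changes were thus almost the same, the SE of s100a11 and pvalb8 was well below that with all libraries, and none passed. At 0.4 against 0.08 nM the lowest edgeR adjusted p without the pair was 0.239, for scpp9. Of the 12 gene and dose-pair combinations with all libraries, 1 had an unadjusted edgeR p below 0.05, that of scpp1 at 0.0332.

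The lower, non-overlapping values of scpp9 and s100a11 at 0.4 nM than at 0.08 nM shared that pattern with 5.25% of genes, and those at 0.8 nM than at 0.08 nM with 6.95%. None of the 4 genes had it for 0.8 against 0.4 nM, where 3.37% of genes did. In the exact two-sided permutation test on CPM, added after the data were seen, each of these 4 combinations had p = 0.0286, the smallest that 4 against 4 libraries allow. Full separation of the libraries always gives this p, so the test restates the non-overlap and adds no support. Adjusted over the 12 combinations, this exact p was 0.0857, which missed 0.05. With only 4 of the 12 separated the adjusted value could not have passed, so nothing is read from the miss.

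Against control, the PCB126 groups depended on the divergent control library. For pvalb8 the log2 fold changes at 0.08, 0.4 and 0.8 nM were -0.37 ± 0.30, -0.43 ± 0.30 and -0.39 ± 0.30 (SE), and they turned to 0.18 ± 0.11, 0.12 ± 0.11 and 0.15 ± 0.11 without the pair. For s100a11 they were -0.86 ± 0.37, -1.12 ± 0.38 and -1.15 ± 0.38, and -0.30 ± 0.13, -0.56 ± 0.13 and -0.59 ± 0.13 without it. In all 3 PCB126 groups s100a11 lay below every control, as 1.80%, 2.93% and 4.49% of genes did at 0.08, 0.4 and 0.8 nM. The scpp genes overlapped the controls at each PCB126 dose. For scpp1 at 0.4 and 0.8 nM and scpp9 at 0.08 nM this overlap came only from the divergent control. Without it the controls had 5.25 to 6.78 CPM of scpp1, above both doses, and 4.99 to 6.88 CPM of scpp9, below 0.08 nM. The share of all genes so separated without it is not given here, so nothing is read from this. For scpp1 the log2 fold changes were 0.01 ± 0.23, -0.44 ± 0.23 and -0.53 ± 0.24, and -0.13 ± 0.21, -0.57 ± 0.22 and -0.67 ± 0.22 without the pair. For scpp9 they were 0.57 ± 0.35, -0.08 ± 0.36 and -0.02 ± 0.36, and 0.84 ± 0.31, 0.19 ± 0.31 and 0.25 ± 0.32 without it. The sign thus turned without the pair for scpp1 at 0.08 nM and for scpp9 at 0.4 and 0.8 nM. These comparisons share the 4 control libraries with the cadmium comparisons that chose the genes.

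Among relatives of the scpp genes, spp1 was the 1 of 6 tested that passed edgeR's test at Cd 24 ug/L. The spp1 gene encodes osteopontin, a secreted phosphoprotein of bone. It had 12.7, 9.41, 14.0 and 24.6 CPM in controls and 6.28, 6.43, 6.96 and 6.95 CPM at Cd 24 ug/L. All highest-dose libraries lay below all controls, as for 3.44% of all genes. It fell by a log2 fold change of -1.18 ± 0.23 (SE, edgeR adjusted p = 0.00694), and of -0.85 ± 0.15 (adjusted p = 0.00126) without the divergent pair. In a model of only the compared groups it did not pass, with an edgeR adjusted p of 0.426. That model called only 1 gene lower and 18 higher of all 24130 it tested. At Cd 12 ug/L spp1 had 11.4, 7.97, 6.47 and 10.4 CPM and did not pass the test, with an edgeR adjusted p of 0.355. In the PCB126 groups it ran from 10.8 to 14.0 CPM.

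The other tested relatives of the scpp genes did not pass at Cd 24 ug/L. At an unadjusted p below 0.05 in edgeR, 3 of the 6 relatives were lower, spp1 included, and 0 higher. The share of all genes at that threshold is not given here, so no excess is read from this count. The gene odam, which encodes an odontogenic ameloblast-associated protein and lies 6356 bases from scpp9, had a log2 fold change of -0.59 ± 0.26 (SE, edgeR adjusted p = 0.358). The values were -0.11 ± 0.24 for scpp5, 0.41 ± 0.45 for scpp8, -0.19 ± 0.19 for sparc and -0.30 ± 0.13 for sparcl1, a SPARC-like matrix gene 7400 bases from scpp1. The median of the 6 was -0.24, against -0.02 over all genes tested, and 0.03 without the pair. The genes scpp6 and scpp7 had too few counts to be tested, 13 and 55 in all 28 libraries. Over the whole table, edgeR called 0.177% of genes lower and 0.744% higher at this dose.

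None of the 12 tested S100 relatives and none of the 5 tested parvalbumins passed edgeR's test at Cd 24 ug/L. At an unadjusted p below 0.05, 1 S100 gene was lower and none higher, and 0 parvalbumins were either. Here and below, unadjusted counts stand without the share of all genes at that threshold, so no excess or lack is read from them. DESeq2 called 0 in both families, and limma on TPM called 1 S100 gene higher. The S100 median log2 fold change was -0.18, and 0.26 without the pair. Without the pair, where 1.45% of genes were called lower and 3.63% higher, 4 S100 genes were higher and none lower. They were s100v1 at 0.53 ± 0.08 (SE, edgeR adjusted p = 0.000256), s100t at 0.41 ± 0.08 (adjusted p = 0.00353), s100a10b at 0.37 ± 0.10 (adjusted p = 0.0247) and s100u at 0.36 ± 0.09 (adjusted p = 0.0234). These genes thus lay on the other side of 0 from s100a11, whose value without the pair was -1.55. The gene s100u lies 4666 bases from s100a11.

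The parvalbumin relatives had log2 fold changes of -0.56 ± 0.33 for pvalb1, -0.62 ± 0.76 for pvalb2, -0.50 ± 0.32 for pvalb4, -0.49 ± 0.26 for pvalb5 and -0.88 ± 0.50 for pvalb7 (SE, Cd 24 ug/L). Their median was -0.56 with all libraries and -0.07 without the pair, while pvalb8 had -1.03 without it. Of 37 other tested EF-hand genes, such as calmodulins and calbindins, none passed with all libraries (4 lower at an unadjusted p below 0.05, and 0 by DESeq2 or limma) and 1 was lower without the pair. Of 13 tested annexins, the partners of S100 proteins, none passed with all libraries (1 higher at an unadjusted p below 0.05, by DESeq2 and by limma) and 3 were higher without the pair.

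**Figure D3:**
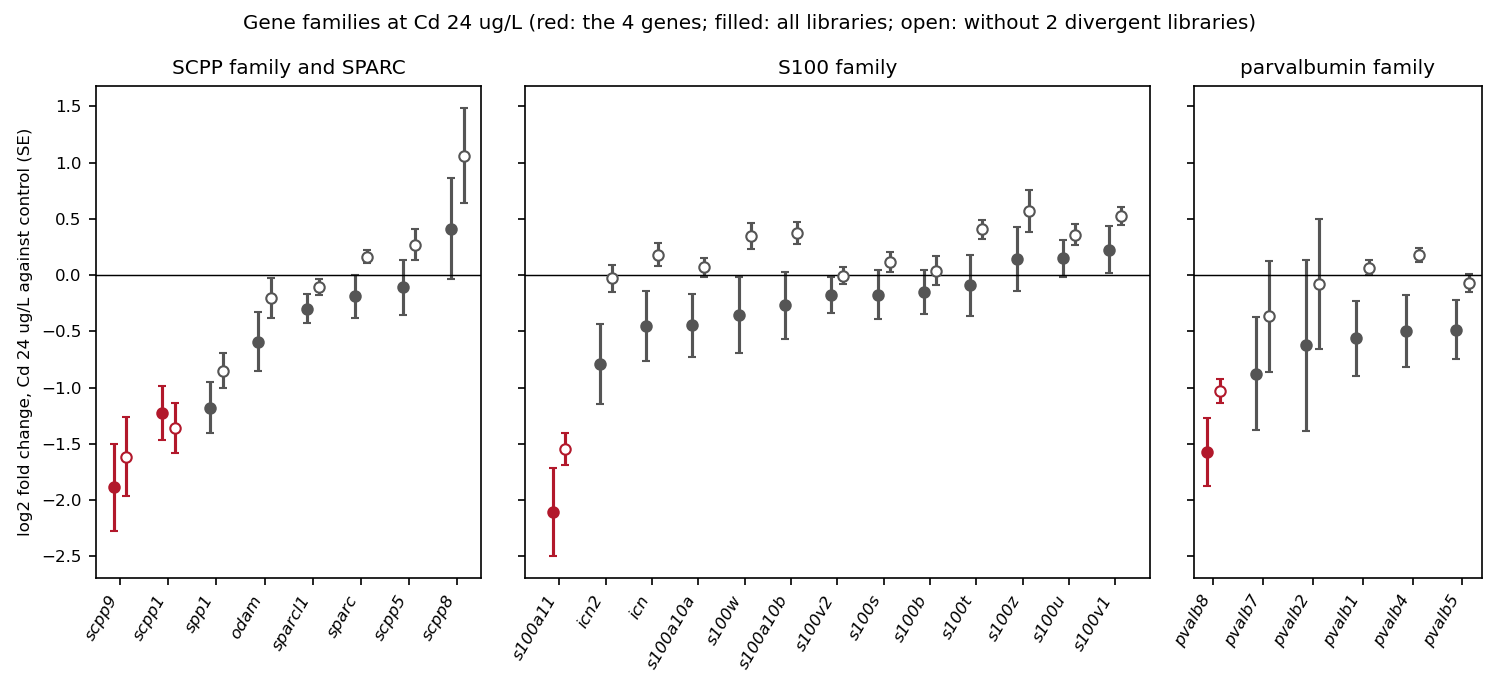
Log2 fold change at Cd 24 ug/L against control with its SE for the tested genes of 3 families; red points are scpp1, scpp9, s100a11 and pvalb8, filled points use all libraries and open points leave out the divergent pair. The red points lie at -1.22 to -2.11 when filled, and the S100 and parvalbumin relatives have medians of -0.18 and -0.56 when filled and 0.26 and -0.07 when open.

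Markers of the cell types in which such genes are known to act were read beside these values. Of 18 tested hair cell markers, 1 was higher at Cd 24 ug/L and none lower. It was otofb, an otoferlin gene of the hair cell synapse, at 0.55 ± 0.11 (SE, edgeR adjusted p = 0.00719). The summed hair cell markers ran from 74.6 to 130.02 CPM in controls, or 120.04 to 130.02 CPM without the divergent one, and from 131 to 141 CPM at Cd 24 ug/L. The highest-dose sums lay above all control sums by a narrow gap, 130.75 against 130.02 CPM at the closest. How often this occurs over all genes is not given here, so nothing is read from the gap. At Cd 12 ug/L the sums ran from 117 to 148 CPM, which overlapped the controls. The called gene otofb is part of these sums. Whether hair cells have a part in the values of pvalb8 was not tested. Of 17 tested osteoblast and bone matrix markers none passed in edgeR, DESeq2 or limma (2 higher at an unadjusted p below 0.05), with a median log2 fold change of 0.09, and without the pair postna was higher at 0.21 ± 0.06 (SE, edgeR adjusted p = 0.0385). Their sum was 5861 to 7572 CPM in controls and 6446 to 7364 CPM at Cd 24 ug/L, which overlapped.

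Of 20 tested epidermal markers, the keratin gene cyt1l was lower at -1.14 ± 0.24 (SE, edgeR adjusted p = 0.0169) and evpla, an envoplakin gene, higher at 0.40 ± 0.10 (adjusted p = 0.0479). Without the pair 1 epidermal marker was lower and 8 were higher, where 1.45% and 3.63% of all genes were. DESeq2 with all libraries called 1 epidermal marker lower and 6 higher, and 208 and 370 of all 23611 genes it tested. The summed level of the epidermal markers was 9834 to 23939 CPM in controls and 9013 to 10131 CPM at Cd 24 ug/L. The high end came from the divergent control, without which the controls reached 10899 CPM. Of 14 tested ionocyte markers, 2 were higher: rhcgb, an ammonium transporter gene, at 0.96 ± 0.20 (edgeR adjusted p = 0.0164) and slc12a10.2, a sodium-chloride cotransporter gene, at 0.54 ± 0.12 (adjusted p = 0.0318). Without the pair 5 ionocyte markers were higher, where 3.63% of all genes were. DESeq2 with all libraries called 4 higher, and 370 of all 23611 genes it tested. The ionocyte sum was 357 to 604 CPM in controls, or 584 to 604 CPM without the divergent one, and 629 to 668 CPM at Cd 24 ug/L. How often such a gap occurs over all genes is not given here, so nothing is read from it. Whether these cell types have a part in the values of the 4 genes was not tested.

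Of 13 tested leukocyte markers, cd74b, an invariant chain gene, was lower at -1.62 ± 0.38 (SE, edgeR adjusted p = 0.0352) and mpx, the neutrophil myeloperoxidase gene, higher at 0.62 ± 0.15 (adjusted p = 0.0486). The summed leukocyte level was 83.4 to 112 CPM in controls and 97.2 to 121 CPM at Cd 24 ug/L. The overlap came from the divergent control, without which the controls had 83.4 to 88.8 CPM. The sums at Cd 12 ug/L (102 to 119 CPM) and in the PCB126 groups (96.6 to 147 CPM) also lay above these controls. How often this occurs over all genes is not given here, so nothing is read from it. In all, 3 of the 155 tested relatives and markers were lower and 5 higher at Cd 24 ug/L, and none at the lower doses. At Cd 24 ug/L 0.177% of all genes were called lower and 0.744% higher, and 1.45% and 3.63% without the pair. Without the pair 23 relatives and markers were higher at Cd 24 ug/L and 3 at Cd 12 ug/L. Of the SCPP and SPARC, other EF-hand, epidermal and leukocyte lists, 1 gene each was lower at Cd 24 ug/L without it. With all libraries, at an unadjusted p below 0.05, 12 relatives and markers were lower and 11 higher at Cd 12 ug/L. At Cd 2.4 ug/L 0 were lower and 6 higher. The share of all genes at this unadjusted threshold is not given here, so no excess is read from these counts. DESeq2 called 3 in all at Cd 12 ug/L and 0 at Cd 2.4 ug/L. Over all genes, by edgeR adjusted p, 0.0118% were called lower and 0.161% higher at Cd 12 ug/L, and 0 lower and 0.0394% higher at Cd 2.4 ug/L. Without the pair those shares at Cd 12 ug/L were 0.0937% and 0.703%. Several of these calls rested on single libraries, by edgeR adjusted p. The call of rhcgb ended without Cd 24 ug/L replicate 1 (0.0605), and those of cyt1l and cd74b without control replicate 4 or Cd 24 ug/L replicate 1, 2 or 3 (up to 0.0651 and 0.143). That of slc12a10.2 ended without control replicate 1 or 4 or Cd 24 ug/L replicate 1, 2 or 4 (up to 0.130). That of evpla ended without any of the 8 libraries but control replicate 2 and Cd 24 ug/L replicate 1 (up to 0.186), and that of mpx without any but Cd 24 ug/L replicate 3 (up to 0.231). The calls of spp1 and otofb held in each of the 8 omissions, with edgeR adjusted p up to 0.0362 and 0.0329. In a model of only the compared groups none of these 8 genes passed, with edgeR adjusted p of 0.114 to 0.604. That model called only 1 gene lower and 18 higher of all 24130 it tested. By limma on TPM otofb, rhcgb, evpla, slc12a10.2 and mpx did not pass, with adjusted p of 0.201, 0.0794, 0.331, 0.249 and 0.168.

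Under PCB126 no tested relative of the SCPP, S100 or parvalbumin families passed edgeR's test against control at any dose. At an unadjusted p below 0.05, 2 parvalbumins were lower at 0.4 nM, and 2 SCPP or SPARC relatives and 1 S100 gene at 0.8 nM. DESeq2 called 0 of them, and limma on TPM called 2 S100 genes higher at 0.8 nM. Of all 155 relatives and markers, none was lower and 1 higher at 0.08 nM, where 0.0866% and 0.299% of all genes were. At 0.4 nM 3 were lower and 2 higher, against 0.366% and 0.638% of all genes. At 0.8 nM 6 were lower and 7 higher, against 1.47% and 2.02%. Genes named above for cadmium were in part called here too, with the same sign, against the same controls. Log2 fold changes (edgeR adjusted p) were 1.20 (0.00064) for rhcgb at 0.8 nM and 0.73 (0.0112) for mpx at 0.4 nM. They were 0.61 (0.00178) and 0.48 (0.00447) for evpla at 0.08 and 0.8 nM. For cd74b they were -1.87 (0.0098) and -1.71 (0.00954) at 0.4 and 0.8 nM. The genes spp1, cyt1l, otofb and slc12a10.2 were called at no PCB126 dose.

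The genes around each of the 4 were read in a window of 100000 bases, chosen after the files were seen. At Cd 24 ug/L none of the 4 tested neighbours of scpp1, the 14 of scpp9, the 11 of s100a11 or the 7 of pvalb8 passed in edgeR, DESeq2 or limma with all libraries. At an unadjusted p below 0.05, 2 neighbours of scpp1 and 3 of scpp9 were lower, and 1 of scpp1 and 1 of s100a11 higher. Without the divergent pair edgeR called 2 neighbours higher, where 3.63% of all genes were. The gene si:dkey-22i16.3, 64534 bases from scpp9, stood at 0.51 ± 0.10 (SE, edgeR adjusted p = 0.00222). The gene s100u, 4666 bases from s100a11, stood at 0.36 ± 0.09 (adjusted p = 0.0234). The window of pvalb8 holds pvalb4, 12000 bases away, pvalb1 at 31140 bases and pvalb5 at 45794 bases. The closest gene to scpp1, tnip2 at 1554 bases, had a log2 fold change of 0.62 ± 0.20 (SE, edgeR adjusted p = 0.167). The low-count gene CT573133.1, with 57 counts over all libraries, overlaps s100a11 on the opposite strand, and since both stranded and unstranded second-strand synthesis are named in the labels, reads of the 2 cannot be assigned with certainty.

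The 4 genes varied together across libraries to different degrees. Between s100a11 and pvalb8 Pearson's r of log2 CPM was 0.927 over 28 libraries, 0.863 over the 26 without the pair and 0.943 after group means were removed from all 28. The points share library and depth, and both genes were chosen on the same contrast, so r is a description. The value after removal keeps the divergent pair, which was high in both genes. The value over 26 libraries keeps the differences between groups. No r given here removes both, also for the genes below. Between scpp1 and scpp9 r was 0.706, and 0.123 after group means were removed. For scpp1 with s100a11 and with pvalb8 the values after removal were 0.126 and 0.0813, and for scpp9 with the same genes 0.553 and 0.574.

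**Figure D4:**
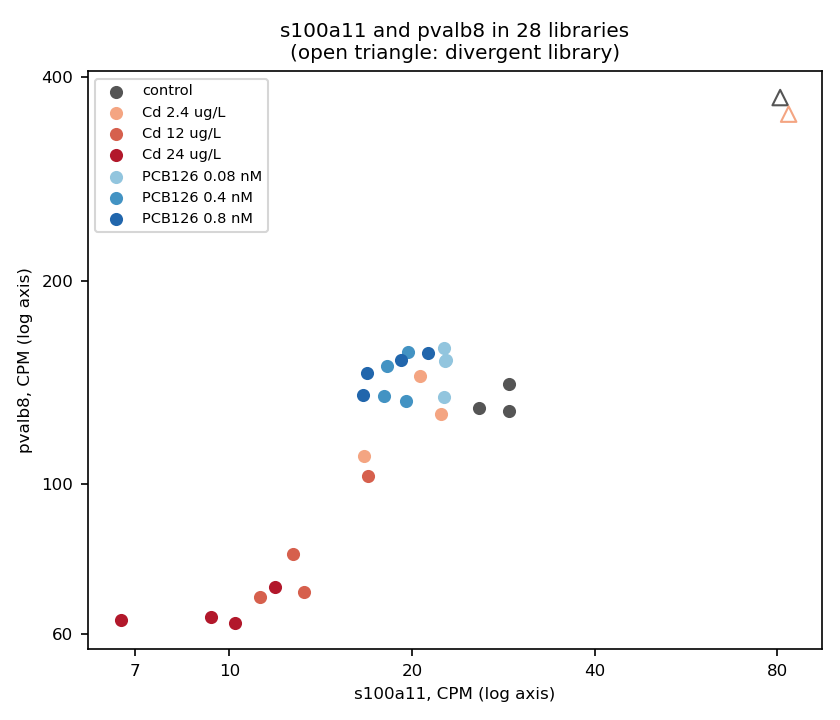
CPM of pvalb8 against CPM of s100a11 in the 28 libraries (log axes), coloured by group, with the divergent pair as open triangles. The Cd 24 ug/L libraries sit at the lower left, at 6.64 to 11.9 CPM of s100a11 and 62.3 to 70.4 CPM of pvalb8, and the pair at the upper right.

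Genes most alike to each of the 4 were read over the 28 libraries among 13766 genes. For scpp1 they were neurod6a and nhlh2, neuronal transcription factors, with tuba2, ephb3a and gpm6ab, at r of 0.810 to 0.884. For scpp9 they were stc1l, ahsg1, gpm6aa, cyp2ad2 and lef1, at 0.814 to 0.833. For s100a11 they were pvalb8, lmo1, tubb5, serpina1 and mllt11, at 0.901 to 0.927. For pvalb8 they were spp1, s100a11, gc, comtd1 and sox14, at 0.899 to 0.934. The most alike gene to pvalb8 was thus osteopontin, whose r was 0.893 over 26 libraries. It was 0.851 after group means were removed from all 28, the divergent pair included.

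The gene most alike to scpp9, stc1l, encodes a stanniocalcin, a family known in fish for a hormone that lowers calcium uptake. It had 3.8, 4.83, 3.47 and 10.5 CPM in controls, 2.38, 0.415, 0.761 and 0.293 CPM at Cd 12 ug/L, and 0.135, 0.0706, 0.0639 and 0.139 CPM at Cd 24 ug/L. The highest dose rests on 2, 1, 1 and 2 counts, against 64, 80, 58 and 115 in controls. The Cd 12 and 24 ug/L groups lay below all controls, as 1.78% and 3.44% of all genes did. At Cd 2.4 ug/L stc1l had 3.49, 5.76, 11.3 and 3.03 CPM, which overlapped the controls. The PCB126 libraries ran from 3.67 to 5.38 CPM. The r of stc1l with scpp9 was 0.833 over 28 libraries and 0.472 after group means were removed. The next gene, ahsg1, encodes a fetuin, a mineral-binding plasma protein in mammals, and averaged 29.0 ± 11.7 CPM in controls and 13.5 ± 3.00 CPM at Cd 24 ug/L (SD, n = 4), with r of 0.746 to scpp9 after group means were removed.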

How the data were processed

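The authors deposited raw counts per gene (not normalised), gene lengths in bases (unit other) and TPM values, per the file headers. HISAT2 2.0.5, featureCounts 1.5.0-p3 and the GRCz11 build are named, per the submitters' processing notes, and the annotation release is not given in the sources used here. TPM recomputed from the deposited counts and lengths differed by a relative difference of at most 5.33e-15 over 27475 genes. No libraries held identical values.

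All 28 libraries entered a single edgeR 4.0.16 model in R 4.3.3 that fits each group's mean and leaves 21 residual degrees of freedom. After filterByExpr by group and TMM scaling, glmQLFit and the two-sided glmQLFTest were run on the 25393 genes left (99.9% of counts), with p-values adjusted by Benjamini-Hochberg. Genes with adjusted p under 0.05 were called. The steps were tested on simulated data. CPM uses the library total times its TMM factor. Counting intervals are exact Poisson at 95% and cover counting error only. Library depth had a median of 14251922 counts. "Without the pair" is a refit on 26 libraries.

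The members and the 10 gene lists (families by symbol, cell types by textbook markers) were chosen with earlier results of these data known. Of each list, members called in any cadmium comparison were named, at most 4 by lowest p at Cd 24 ug/L. S100 genes called without the pair, gene neighbours, and relatives that did not pass were named after their values were seen. Likeness is Pearson's r of log2 CPM (prior count 2) among named genes averaging 1 or more on that scale, with 5 genes named for each. Alternatives were DESeq2 1.42.0, edgeR with DESeq2 size factors, testing without any filter or with a mean of 10 counts as the filter, limma 3.58.1 on log2(TPM + 1), only the compared groups, replicate number as a block, each library left out, and, added after seeing the data, the exact permutation test. No sequence was used here.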

Additional observations from a re-analysis of the deposited data

Results flagged for a closer look

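In 5 of 28 combinations of gene and group, 1 library lay far from the other 3 by Dixon's criterion, which chance meets in about 1 of 20 groups. For s100a11 these were control replicate 4 at 80.9 CPM and Cd 2.4 ug/L replicate 3 at 83.5 CPM. For pvalb8 they were control replicate 4 at 373 CPM, Cd 2.4 ug/L replicate 3 at 353 CPM and Cd 24 ug/L replicate 4 at 70.4 CPM. The first 4 values belong to the divergent pair of libraries, and at Cd 24 ug/L the other 3 libraries of pvalb8 had 62.3 to 63.5 CPM.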

How the results depend on the processing

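At Cd 24 and 12 ug/L all 4 genes stayed below control in each of the 64 alternatives per dose. The genes were chosen as lower under cadmium in these same libraries, so the kept sign is no independent support. At Cd 24 ug/L 61 of the 64 alternatives moved the log2 fold change by less than 1 SD. This is the SD of log2 CPM between replicates, pooled over both groups. The others were scpp1 at -0.74 by limma on TPM, and pvalb8 at -1.03 without the divergent pair and -1.04 in a single omission. The 8 single omissions of pvalb8 ran from -1.73 to -1.04, and 7 of them moved it by less than 1 SD. Limma shifts the median of all genes by 0.17 and uses log2(TPM + 1). The means of scpp1 were 3.79 TPM in controls and 1.72 TPM at Cd 24 ug/L. What moved scpp1 was not tested. The SD includes the divergent control, so s100a11 counted as unmoved though it went from -2.11 to -1.55 without the pair. Without the pair the PCB126 values against control were -0.30 (0.08 nM) and -0.56 (0.4 nM) for s100a11 and 0.18, 0.12 and 0.15 for pvalb8. Single omissions gave -1.02 to -0.30 and -1.29 to -0.57 for s100a11, and -0.52 to 0.18, -0.58 to 0.11 and -0.54 to 0.15 for pvalb8. The PCB126 dose pairs missed the threshold in all 204 alternatives. These include the 12 of the exact test, which could not have passed with only 4 combinations separated. Relatives and markers called higher at Cd 24 ug/L numbered 13 by DESeq2, 3 with its size factors, 2 without a filter, 3 with the stricter filter, 3 by limma, 0 in a model of only the compared groups and 23 without the pair (2 to 5 over omissions). Those called lower numbered 0 in the model of only the compared groups and 1 to 3 over omissions. Over all 24130 genes it tested, the model of only the compared groups called 1 lower and 18 higher. At Cd 12 ug/L DESeq2 called 1 lower and 2 higher, the pair's removal gave 3 higher, and omissions 0 to 1. The cause was not tested. Replicate numbers did not pair the samples (11 of 36 correlations over 0.1, from -0.65 to 0.59, and 8 of 28 libraries closest to their own number). With the replicate block 1 marker was higher at Cd 12 ug/L, and edgeR called 34 genes lower and 153 higher at Cd 24 ug/L, against 45 and 189 without it. DESeq2 called 208 and 370. Depth limits scpp1 and scpp9 most, at 16 to 44 counts per library at Cd 24 ug/L.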
